A study of Mus musculus with 12 samples.

Results

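The MHC class II genes were followed through RNA-seq of 12 mouse hearts, as 7 genes chosen by symbol from the 55885 genes listed: H2-Aa, H2-Ab1, H2-Eb1, Cd74, H2-DMa, H2-DMb1 and Ciita. The hearts came from male C57BL/6J mice (C57BL/6 in the labels) that were 8 weeks old when used, 3 in each of 4 groups that crossed genotype with cisplatin (CDDP), an anticancer drug that binds DNA. Wild-type mice without cisplatin formed the Saline group, and wild-type mice given 6 mg/kg by intraperitoneal injection on days 1, 8 and 15 formed the CDDP group. Mice without functional STING (STING-/-), an adaptor of the sensing of cytosolic DNA, were studied without cisplatin (the STING-/- group) and with the same 3 injections (the STING-/-+CDDP group). Hearts without cisplatin are untreated by their labels, whereas the methods describe saline. The STING-/- line carries the mutation in every cell, was bought from another supplier than the wild-type mice, and whole heart tissue was sequenced, so every cell type of the organ contributed to each value. In a bulk sample, fewer cells of a type and less RNA per cell cannot be told apart.

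Classical MHC class II molecules are pairs of an alpha and a beta chain that carry peptides from endocytosed proteins to the surface of antigen-presenting cells, where CD4 T cells read them. In mice of this background the classical pair is made from H2-Aa and H2-Ab1, whereas the beta chain H2-Eb1 is transcribed but its alpha partner is not. CD74, the invariant chain, holds the groove of new class II pairs and guides them to endosomes, and H2-DM, the pair of H2-DMa and H2-DMb1, exchanges the remaining CD74 peptide for antigen. CIITA is the transactivator that the promoters of all these genes depend on, and it acts through factors bound to the X and Y boxes. In the heart, class II is known mainly from resident macrophages and dendritic cells.

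The promoters are shown because class II genes are known for shared promoter elements, through which CIITA acts. RefSeq promoter windows on GRCm38.p6, from 250 bases before to 50 after the start, matched 4 of the 7 genes in 5 windows, 1 each for H2-Aa, H2-Eb1 and H2-DMb1 and 2 for H2-DMa. The 150 bases before the start are printed 5′ to 3′ along the gene's own strand for H2-Aa (chr17:34287824-34287973, minus strand), H2-Eb1 (chr17:34305717-34305866, plus strand) and H2-DMb1 (chr17:34153041-34153190, plus strand), and capitals mark the letters GNAACT and, downstream of them, GATTGG.
H2-Aa: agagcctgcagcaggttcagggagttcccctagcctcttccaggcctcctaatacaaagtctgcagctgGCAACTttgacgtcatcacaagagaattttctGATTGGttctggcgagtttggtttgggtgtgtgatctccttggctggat
H2-Eb1: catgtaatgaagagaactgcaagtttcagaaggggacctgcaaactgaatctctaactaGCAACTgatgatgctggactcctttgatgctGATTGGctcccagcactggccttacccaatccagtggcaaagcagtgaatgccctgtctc
H2-DMb1: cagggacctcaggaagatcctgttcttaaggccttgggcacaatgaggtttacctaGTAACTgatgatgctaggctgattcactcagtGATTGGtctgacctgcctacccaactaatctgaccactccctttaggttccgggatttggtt
In these 3 windows the first marked word began 81, 91 and 94 bases before the start and the gap to the second was 26, 25 and 26 bases. The pair was searched on both strands with a gap of 10 to 40 bases and was present in 0.414% of 32851 windows of the 250 bases before a start. It was absent from both H2-DMa windows. These letters were chosen after the sequences had been seen, and 2 forms were tried. The second, which left out the last letter of the first word and allowed 20 to 35 bases between the words, was in 0.788% of windows and added no member. Among the other class II genes the first form was in H2-Eb2, and the second added H2-Oa and H2-Ob. Of the shorter motifs, ATTGG or CCAAT, the core of a Y box, was in 4 of the 5 member windows against 33.8% of all windows, and it overlaps the second marked word. TGACG or CGTCA was in the H2-Aa window alone among the 5 (17.8% of all windows).

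Expression is given as TPM, the usual RNA-seq unit in which reads are divided by gene length and every heart is scaled to one total. The unit holds no read number, and sequencing depth is therefore unknown here. Each heart had 19680 to 21024 genes above 0. The 13815 genes that reached a TPM of 1 in 3 or more hearts were compared as log2(TPM + 1) with limma, two-sided, with Benjamini-Hochberg adjustment over these genes and a threshold of 0.05. The added 1 makes the fold change of low genes smaller than it is. Of the 7 genes, 6 entered the test, and Ciita stayed below the filter. The targeted gene Sting1 was listed at 2.87 to 5.96 TPM in the 6 hearts of STING-/- mice and at 5.62 to 22.1 TPM in the 6 wild-type hearts. A TPM per gene does not show whether its transcripts carry the mutation.

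In the Saline hearts, Cd74 was the most abundant of the 7 genes at 228.8 ± 82.6 TPM (SD, n = 3). The 3 chain genes followed at like levels, H2-Eb1 at 91.4 ± 32.9, H2-Aa at 87.9 ± 41.3 and H2-Ab1 at 79.9 ± 45.6 TPM, and these neighbours did not differ beyond their spread. H2-DMa (8.45 ± 4.52 TPM) and H2-DMb1 (6.75 ± 3.27 TPM) were lower and overlapped each other, and Ciita was lowest at 0.697 ± 0.558 TPM. The alpha gene that would pair with H2-Eb1, named H2-Ea in the table and annotated as a polymorphic pseudogene, was listed at 0 in all 12 hearts. The first Saline heart was highest and the third lowest for 7 of the 7 genes. H2-Eb2, H2-DMb2, H2-Oa and H2-Ob, the other class II genes, stayed at or below 1.37 TPM in every heart and none was tested.

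**Figure D1:**
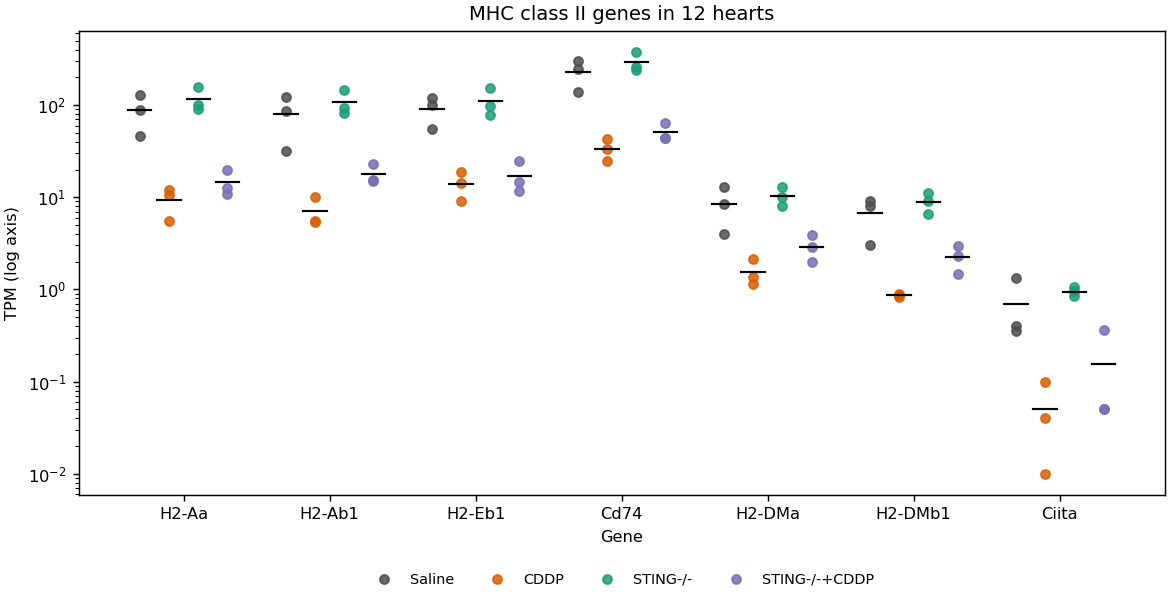
TPM of the 7 MHC class II genes on a log axis, 1 point per heart and 3 hearts per group, with a bar at each group mean. For every gene but Ciita the 6 hearts with cisplatin sit below the 6 without. For Ciita the highest heart with cisplatin (0.36 TPM) is just above the lowest without (0.35 TPM).

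The comparison of CDDP with Saline hearts addressed the effect of cisplatin in wild-type mice. All 6 tested genes were lower with cisplatin, while 10.4% of all tested genes were lower and 8.52% higher at the same threshold. Their median log2 fold change was -2.65, and that of all tested genes -0.00. On this scale H2-Ab1 and H2-Aa fell most, Cd74 and H2-Eb1 by like amounts, and the 2 genes of the H2-DM pair least. Pooled over genotypes, 6 of the 7 genes had all 6 cisplatin hearts below the 6 others, against 6.15% of all tested genes.

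H2-Aa (GRCm38 chr17:34282744-34287823, minus strand), the classical alpha chain, had a TPM of 129.0, 88.2 and 46.3 with saline and of 5.46, 11.9 and 10.6 with cisplatin. The highest CDDP heart was well under the lowest Saline one, and limma gave a log2 fold change of -3.05 (standard error 0.38, adjusted p = 8.63e-04). H2-Ab1 (chr17:34257689-34269419), its beta chain, was at 122.6, 85.3 and 31.9 TPM against 5.45, 5.55 and 10.0 TPM, the largest change on this scale among the 6 tested genes (log2 fold change -3.18, standard error 0.43, adjusted p = 0.00106). H2-Eb1 (chr17:34305867-34316674) was at 118.4, 101.2 and 54.8 TPM against 9.14, 18.8 and 14.2 TPM, again without overlap (log2 fold change -2.60, standard error 0.37, adjusted p = 0.00135). Its antisense neighbour Gm20513 was listed at 0 throughout, and the counting was not stated to use strand. The ratio of group means, Saline over CDDP, was 9.44 for H2-Aa, 11.4 for H2-Ab1 and 6.51 for H2-Eb1.

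H2-DMa (chr17:34119541-34139101) was at 13.0, 8.35 and 3.98 TPM in the Saline and 1.35, 2.14 and 1.15 TPM in the CDDP hearts (log2 fold change -1.79, standard error 0.34, adjusted p = 0.00547). It overlaps Brd2 on the opposite strand, which was listed at 39.5 to 92.2 TPM with its highest group mean in the CDDP hearts, and how reads of the shared stretch were divided is not known. H2-DMb1 (chr17:34153072-34160230) was at 9.15, 8.07 and 3.03 TPM against 0.90, 0.83 and 0.87 TPM, with the CDDP hearts close together (log2 fold change -1.94, standard error 0.32, adjusted p = 0.00278). Its near copy H2-DMb2 was at most 0.76 TPM, and how reads were divided between the copies is uncertain. At these low levels the added 1 shrinks the fold change: the group means of H2-DMb1 stood at a ratio of 7.79, larger than those of H2-Eb1 and Cd74.

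Cd74 lies on chromosome 18 of GRCm38, from 60803848 to 60812652 on the plus strand, apart from the MHC. Its TPM was 302.8, 243.8 and 139.7 with saline against 24.6, 43.1 and 33.0 with cisplatin (log2 fold change -2.70, standard error 0.30, adjusted p = 6.79e-04). Its standard error was the smallest of the 6, and the ratio of group means was 6.81. Cd74 stayed close to the summed TPM of H2-Aa, H2-Ab1 and H2-Eb1 in every heart, between 0.818 and 1.23 times that sum over all 12.

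Ciita (chromosome 16, 10480059 to 10528418, plus strand), the transactivator, was at 1.34, 0.40 and 0.35 TPM in the Saline and 0.01, 0.10 and 0.04 TPM in the CDDP hearts. The STING-/- hearts had 1.05, 0.95 and 0.84 TPM, and the STING-/-+CDDP hearts 0.05, 0.36 and 0.05 TPM. Within each genotype the groups did not overlap, and the exact permutation test of 3 hearts against 3 gave p = 0.10 in both, the smallest it can give. An exact permutation of cisplatin within genotypes over 400 arrangements gave p = 0.005, also the smallest possible, a test added after the values were seen. With no filter limma did not call Ciita in wild-type (adjusted p = 0.0733) or in STING-/- mice (adjusted p = 0.167), and in the average over genotypes it gave a log2 fold change of -0.71 (adjusted p = 0.0133). With a pseudocount of 0.1 as well, the adjusted p was 0.0384 in wild-type mice, 0.167 in STING-/- mice and 0.00777 in the average (log2 fold change -2.25). Ciita overlaps Dexi on the opposite strand, listed at 7.44 to 20.03 TPM.

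In STING-/- mice 5 of the 6 tested genes were lower with cisplatin, against 0.68% of all tested genes (0.253% were higher). Their median log2 fold change was -2.50, that of all tested genes -0.11. H2-Aa was at 155.5, 90.8 and 99.5 TPM in the STING-/- and 11.0, 19.9 and 12.7 TPM in the STING-/-+CDDP hearts (log2 fold change -2.91, adjusted p = 0.00753). H2-Ab1 was at 146.6, 81.2 and 92.4 TPM against 15.0, 23.1 and 15.4 TPM (log2 fold change -2.50, adjusted p = 0.0240). H2-Eb1 was at 153.1, 78.8 and 97.1 TPM against 11.7, 24.5 and 14.7 TPM (log2 fold change -2.63, adjusted p = 0.00901). As in wild-type mice, no treated heart reached an untreated one for these chains.

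Cd74 was at 373.7, 239.8 and 259.6 TPM in the STING-/- hearts and at 43.4, 64.3 and 43.7 TPM in the STING-/-+CDDP hearts (log2 fold change -2.50, adjusted p = 0.00543). H2-DMb1 passed narrowly, with 11.1, 9.06 and 6.65 TPM against 1.47, 2.95 and 2.30 TPM (log2 fold change -1.62, adjusted p = 0.0405). H2-DMa was at 13.0, 10.1 and 8.13 TPM against 2.88, 3.90 and 1.97 TPM and missed the threshold (log2 fold change -1.55, adjusted p = 0.0614), although its groups did not overlap. Leaving out any one of the 6 hearts of STING-/- mice brought the count of 5 down to 2 or 3. It was 2 without STING-/- heart 1 or STING-/-+CDDP heart 1 or 3, and 3 without STING-/- heart 2 or 3 or STING-/-+CDDP heart 2. Of all tested genes, the number called lower fell in the same fits from 94 to between 12 and 38. The first STING-/- heart and the second STING-/-+CDDP heart were the highest of their groups for 7 of the 7 genes.

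Averaged over genotypes, all 6 tested genes were lower with cisplatin, among 12.6% of all tested genes (7.28% were higher). The log2 fold changes ran from -2.98 for H2-Aa to -1.67 for H2-DMa, with adjusted p from 6.27e-05 for Cd74 to 0.00108 for H2-DMa. Ranked by this fold change from the lowest, H2-Aa was number 8 and H2-Ab1 number 9 of the 13815 genes, H2-Eb1 number 15 and Cd74 number 18.

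The comparison of STING-/-+CDDP with CDDP hearts asked whether loss of STING altered the levels under cisplatin. The group mean was higher in STING-/-+CDDP hearts for 7 of the 7 genes, but 0 of the 6 tested genes passed limma, and 2 had an unadjusted p under 0.05. Of all tested genes, 0.362% were higher and 0.854% lower. H2-Ab1 had the largest difference, from 5.45, 5.55 and 10.0 TPM in the CDDP to 15.0, 23.1 and 15.4 TPM in the STING-/-+CDDP hearts (log2 fold change 1.25, 95% interval 0.32 to 2.18, unadjusted p = 0.0128, adjusted p = 0.144). H2-DMb1 followed (0.77, interval 0.07 to 1.47, adjusted p = 0.216). The differences of H2-Aa (0.61, interval -0.22 to 1.45), H2-DMa (0.61, -0.13 to 1.35), Cd74 (0.58, -0.07 to 1.24) and H2-Eb1 (0.25, -0.55 to 1.05) had intervals that held 0. All 3 STING-/-+CDDP hearts were above all 3 CDDP hearts for H2-Ab1, Cd74 and H2-DMb1, 3 of the 7 genes, where 7.12% of all tested genes had this order.

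Without cisplatin the STING-/- mean was also above the Saline mean for 7 of the 7 genes, with log2 fold changes of 0.28 to 0.56 in the 6 tested. In this comparison limma called 0 of the 6, and 0 had an unadjusted p under 0.05, with 0.029% of all tested genes higher and 0.0434% lower. The STING-/- hearts overlapped the Saline hearts for every gene. Averaged over treatments, the genotype difference was largest for H2-Ab1 (0.91, 95% interval 0.25 to 1.57, unadjusted p = 0.0111, adjusted p = 0.275). By limma 0 of the 6 passed there and 3 had an unadjusted p under 0.05, with 0.0941% of all tested genes higher and 0.0869% lower. Saline and CDDP hearts enter these comparisons as shared controls, so their results are not independent of one another.

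Whether cisplatin acted differently in the 2 genotypes was tested by the interaction. For the 6 genes it lay between -0.03 (H2-Eb1) and 0.69 (H2-Ab1, 95% interval -0.63 to 2.00), and limma called 0 of the 6, with 0 at an unadjusted p under 0.05. Over all tested genes 0.00724% were called higher and 0% lower. The intervals are wide, that of H2-Aa running from -1.04 to 1.33, so differences of that size between genotypes were not detectable with 3 hearts a group.

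**Figure D2:**
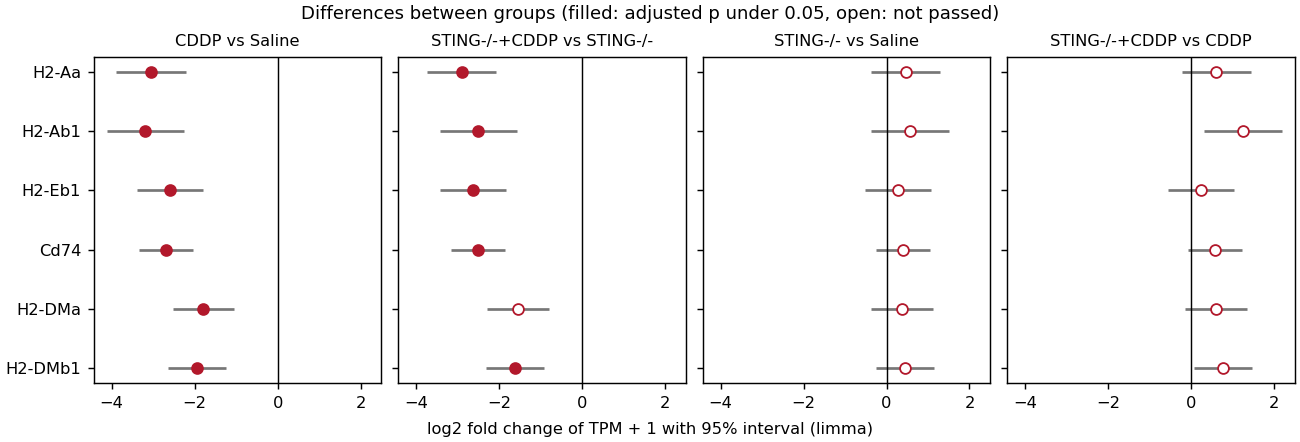
Log2 fold changes of TPM + 1 (points) with 95% intervals (lines) for the 6 tested genes in 4 comparisons, from limma on 12 hearts, filled where the adjusted p was under 0.05. With cisplatin the points lie between -3.18 and -1.55. Between genotypes they lie between 0.25 and 1.25, and none is filled.

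The chains were also compared with each other within each heart, since a ratio of 2 TPM values does not depend on how the heart was scaled. These 4 ratios and 8 exact permutation tests, two-sided over 400 arrangements, were chosen after the values were seen. H2-Aa over H2-Eb1 was 1.09, 0.872 and 0.846 with saline and 0.597, 0.635 and 0.741 with cisplatin in wild-type mice. In STING-/- mice the values were 1.02, 1.15 and 1.02 without and 0.938, 0.810 and 0.864 with cisplatin. In both genotypes the treated hearts lay below the untreated ones (log2 difference -0.40, exact permutation p = 0.005, the smallest possible, adjusted p = 0.04 over the 8 tests). Without the second STING-/- heart the direction was kept and the exact permutation p adjusted over the 8 tests was 0.08.

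H2-Ab1 over H2-Eb1 was 1.04, 0.843 and 0.582 for Saline, 0.596, 0.296 and 0.705 for CDDP, 0.957, 1.03 and 0.951 for STING-/- and 1.28, 0.943 and 1.04 for STING-/-+CDDP. The hearts of STING-/- mice were higher on average and overlapped the first Saline heart (log2 difference 0.70, exact permutation p = 0.02, adjusted p = 0.0533). H2-Aa over H2-Eb1 differed between genotypes by 0.30 (exact permutation p = 0.015, adjusted p = 0.0533), and H2-Ab1 over H2-Aa by 0.40 (exact permutation p = 0.05, adjusted p = 0.1). The other 4 tests, which include both of H2-DMb1 over H2-DMa, had adjusted p of 0.344 or more.

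**Figure D3:**
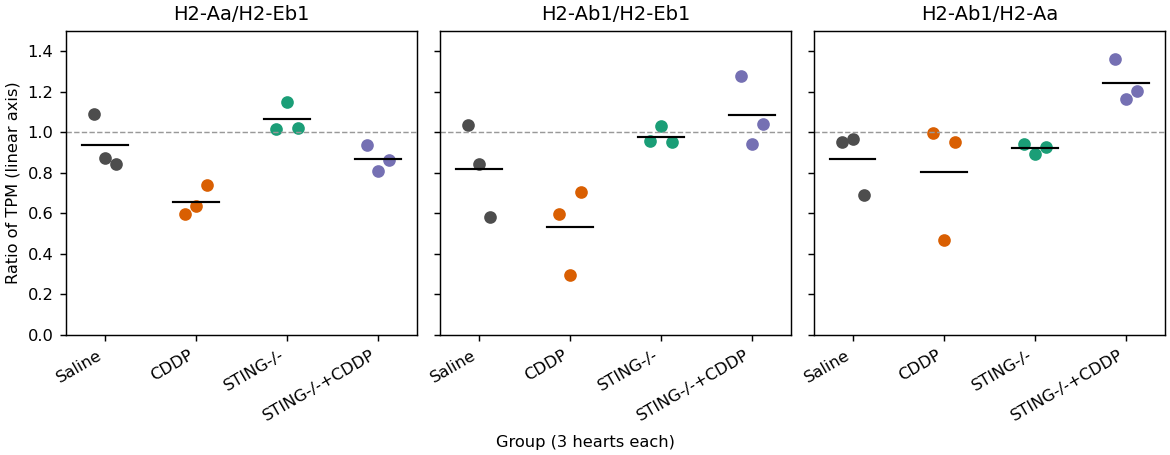
Ratio of TPM between 2 class II chains in each heart (points, 3 per group) with the group mean (bar) on a linear axis from 0, and a dashed line at a ratio of 1. H2-Aa/H2-Eb1 falls from a mean of 0.936 to 0.658 with cisplatin in wild-type hearts and from 1.06 to 0.870 in STING-/- hearts. H2-Ab1/H2-Aa is above 1 only in the 3 STING-/-+CDDP hearts.

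Markers of macrophages, which carry class II, moved in the same comparisons. In wild-type hearts, where 10.4% of all tested genes were lower with cisplatin, 7 of 9 macrophage markers fell (median log2 fold change -1.29). They included Cx3cr1, a chemokine receptor (-2.18, adjusted p = 8.02e-04), Csf1r, the receptor for the growth factor of macrophages (-1.81, adjusted p = 0.00854), and the complement genes C1qc (-1.43, adjusted p = 0.00536) and C1qb (-1.21, adjusted p = 0.00695). In STING-/- mice 2 of the 9 fell (median log2 fold change -0.99), where 0.68% of all tested genes were lower. Averaged over genotypes 7 of the 9 fell, where 12.6% of all tested genes were lower. The summed TPM of the 9 was 508.2 to 640.0 in the Saline, 143.5 to 291.8 in the CDDP, 462.8 to 686.9 in the STING-/- and 203.3 to 387.2 in the STING-/-+CDDP hearts, and no marker was at 0 throughout. Relative to that sum, the 3 chains together were at 0.262 to 0.710 in the Saline, 0.124 to 0.140 in the CDDP, 0.427 to 0.663 in the STING-/- and 0.118 to 0.211 in the STING-/-+CDDP hearts. The C1q genes made up 83.3% to 88.3% of that sum. Over single markers, all treated hearts were below all untreated ones for 5 of the 9, Cd68, Mertk, C1qa, C1qb and C1qc, and not for Adgre1, Csf1r, Fcgr1 and Cx3cr1. Over Cx3cr1 the chains ran from 143.7 to 329.2 with cisplatin and from 52.8 to 160.8 without.

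With the mean log2 level of the macrophage markers as a covariate, an alternative added after the values were seen, the log2 fold changes became -2.19 to -0.86 in wild-type and -1.90 to -0.79 in STING-/- mice, and 0 of the 6 genes passed limma in either. Across all genes that model called 125 higher and 16 lower in CDDP against Saline hearts, where the model without it called 1177 and 1433. In STING-/-+CDDP against STING-/- hearts it called 2 higher and 0 lower, where the model without the covariate called 35 and 94. The markers and the treatment move together across the 12 hearts. The part of macrophage number in the class II levels was not tested beyond this model.

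Other cell lists gave smaller counts. With cisplatin, 10.4% of all tested genes were lower in wild-type mice, 0.68% in STING-/- mice and 12.6% in the average over genotypes. Of 5 markers of resident macrophages, 3 fell in wild-type hearts: Mrc1 (-1.72), the folate receptor gene Folr2 (-2.43) and Timd4 (-1.49). Lyve1 and Cd163, the rest of the list, were not called there and overlapped between the groups. The mean of Lyve1 was 42.1 TPM in Saline and 47.3 TPM in CDDP hearts, and that of Cd163 23.0 and 13.9 TPM. In STING-/- mice 2 of the 5 fell. Of 8 dendritic cell markers 4 were tested, and Clec10a, a lectin also made by macrophages, fell in wild-type (-1.75, adjusted p = 0.00277) and in STING-/- hearts (-1.66, adjusted p = 0.0248). The other tested ones, Zbtb46, Clec9a and Batf3, were called in neither genotype, and 2 of the 4 were lower in the average over genotypes. Means in Saline, CDDP, STING-/- and STING-/-+CDDP hearts were 5.51, 3.39, 3.30 and 3.77 TPM for Zbtb46. They were 1.39, 1.12, 1.48 and 1.33 TPM for Clec9a, and 1.46, 0.62, 1.63 and 0.243 TPM for Batf3. All 6 B cell markers were under the filter, with summed TPM of 0.86 to 3.09 in the Saline, 0.16 to 0.48 in the CDDP, 1.70 to 2.22 in the STING-/- and 0.34 to 0.60 in the STING-/-+CDDP hearts. The 5 partners on CD4 T cells summed to 0.57 to 5.26 TPM over all hearts, and the 1 tested, Cd3g, was not called (-0.88, adjusted p = 0.0588). The pan-leukocyte gene Ptprc passed in the average over genotypes and in neither genotype alone (-0.92, adjusted p = 0.0250). So did the monocyte gene Ccr2 (-0.96, adjusted p = 0.0111), the 1 of 4 monocyte markers that passed. The median log2 fold change of the 4 in wild-type hearts was -0.02. Chil3 was at 0.73, 0.70 and 0.31 TPM in the Saline and 162.7, 7.37 and 5.01 TPM in the CDDP hearts. It was at 0.35, 24.1 and 0.61 TPM in the STING-/- and 4.38, 6.81 and 2.44 TPM in the STING-/-+CDDP hearts. The mean of Plac8 was 7.05 TPM in Saline and 10.7 TPM in CDDP hearts, and that of Ly6c2 5.89 and 4.90 TPM. Endothelial markers, among them Kdr (-1.39) and Cdh5 (-0.998), fell in 3 of 6 in wild-type hearts and in 0 of 6 in STING-/- hearts. For the interaction of cisplatin and genotype limma called 0 of these 6, with 0.00724% of all tested genes called higher and 0% lower. Of 6 cardiomyocyte genes, which check the tissue, all were present in every heart with a lowest sum of 21544 TPM, and Actc1 was lower (-3.55) and Tnnt2 higher (0.56) in CDDP hearts.

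Upstream of class II stand the factors that bind its promoters. Of 7 tested, covering RFX, NF-Y and Creb1, 2 were higher in CDDP than in Saline hearts, Nfyb (0.63, adjusted p = 0.0382) and Creb1 (0.57, adjusted p = 0.0467), and none was lower. Of all tested genes, 8.52% were higher and 10.4% lower in that comparison. In interferon gamma signalling, the main inducer of Ciita, 6 of 8 genes were tested. Among those that passed in wild-type hearts, the receptor subunit Ifngr2 fell from 62.5, 37.5 and 40.2 TPM to 17.2, 16.8 and 20.04 TPM (-1.29, adjusted p = 0.00148), and the kinase gene Jak2 rose (0.53, adjusted p = 0.0397). Ifng itself was listed at 0 in 9 of the 12 hearts and at most at 0.35 TPM. In STING-/- mice 0 of the 6 passed limma, and 2 had an unadjusted p under 0.05, among them Ifngr2 (-0.47). There 0.253% of all tested genes were higher and 0.68% lower.

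Downstream, 1 of 6 lysosomal processing genes passed in wild-type hearts, Ctsl, a cathepsin that trims CD74, which rose (2.02, adjusted p = 0.00228). In STING-/- mice 0 of the 6 passed, with Ctsl at 0.85 (adjusted p = 0.265). Averaged over genotypes, Ctsl was higher (1.43, adjusted p = 0.00163). Ctss, the cathepsin that finishes CD74 degradation in antigen-presenting cells, fell in that average (-0.87, adjusted p = 0.0154), together with Lgmn (-0.58, adjusted p = 0.0226) and Ctsb (-0.47, adjusted p = 0.0406). Ctss, Lgmn and Ctsb passed in neither genotype alone. Of all tested genes, 7.28% were higher and 12.6% lower in the average. Of 3 genes for turnover, Sppl2a, which cleaves the CD74 stub (-0.47, adjusted p = 0.0160), and Marchf1, the ubiquitin ligase of class II (-0.65, adjusted p = 0.0164), fell in that average. Sppl2a and Marchf1 passed in neither genotype alone. Marchf1 was at -0.21 in wild-type (adjusted p = 0.551) and at -1.09 in STING-/- mice (adjusted p = 0.0517). Mif and Ddt, the ligands of CD74, were not called in CDDP hearts (0.10 and 0.53), and 0 of that list of 3 passed in any comparison. Among costimulatory genes Cd86 fell (-1.50, adjusted p = 0.00218) and Cd80 rose (0.92, adjusted p = 0.0357), and in STING-/- mice Cd86 alone of the 5 tested fell (-1.37, adjusted p = 0.0240). In the comparisons between genotypes and the interaction, no gene of these lists passed.

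**Figure D4:**
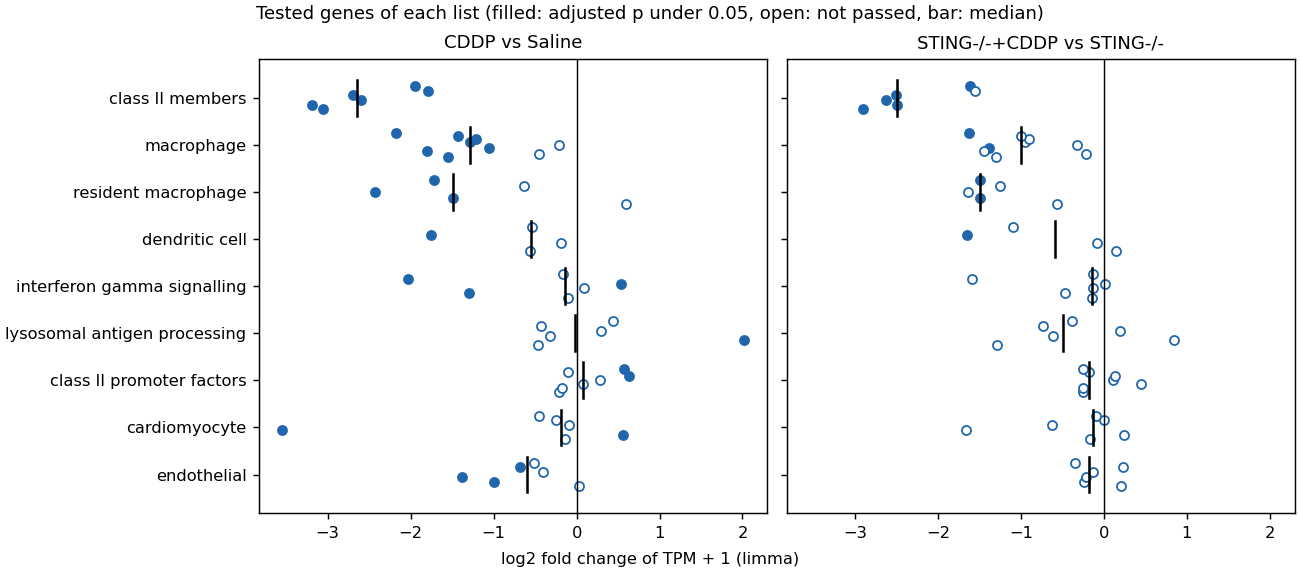
Log2 fold change of TPM + 1 with cisplatin in wild-type (left) and STING-/- mice (right) for the tested genes of 9 lists, filled where the adjusted p was under 0.05, with a bar at each list's median. The class II genes have medians of -2.65 and -2.50, the macrophage markers -1.29 and -0.99, and the promoter factors 0.08 and -0.18.

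The genes whose pattern over the 12 hearts was most like the mean of the 6 tested members were sought by the root mean square difference of centred log2(TPM + 1). The 10 nearest were Mgl2 (0.328), Fcrls (0.339), Ly86 (0.373), Ccl12 (0.425), Gm16534 (0.432), Ighm (0.449), Gm12250 (0.455), Oas1a (0.459), Tgtp2 (0.471) and Cx3cr1 (0.476). The members themselves lay at 0.136 (Cd74) to 0.412 (H2-DMa), so Mgl2 and Fcrls were nearer than H2-DMb1, H2-Ab1 and H2-DMa. The median over all tested genes was 1.30. Mgl2, a lectin of macrophages and dendritic cells, was at 30, 10.8 and 8.83 TPM in the Saline and 0.34, 1.38 and 1.47 TPM in the CDDP hearts, and at 18.3, 18.5 and 14.4 TPM in the STING-/- and 2.51, 3.21 and 1.61 TPM in the STING-/-+CDDP hearts. Ighm, the heavy chain of IgM, was at 8.47 to 23.6 TPM without cisplatin and at 0.82 to 1.68 TPM with it. For both, every treated heart was below every untreated one, as for 6.15% of all tested genes. Choosing genes by their likeness to the members favours this order.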

How the data were processed

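RNA-seq of 12 hearts, 3 per group, was analysed, with groups taken from the genotype and treatment labels. The authors deposited TPM per gene, rounded to 2 decimals. The submitters' processing notes name fastp, HISAT, RSEM and GRCm38.p5. Versions, strand setting and scaling between hearts were not given in the sources used here. The 4 columns of the authors' group means were not used. TPM give no read counts, so depth and intervals that rest on it could not be given and count models were not used. Whether each library is 1 mouse is not stated per sample, and p-values measure the spread between these libraries.

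One coefficient per group was fitted to log2(TPM + 1) with limma 3.58.1 in R 4.3.3 (eBayes with a trend, 8 residual degrees of freedom), after a filter of TPM at least 1 in at least 3 hearts. Contrasts were the 4 pairwise comparisons, the interaction and both averages. Ciita, below the filter, was tested by exact permutation. The procedure was tested on simulated data. Positions and biotypes came from GENCODE M21, which held 55141 of the 55885 identifiers, and promoter sequences from RefSeq. Python 3.11.15 with matplotlib 3.10.9 drew the figures.

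All 7 members are named. Of each list, up to 4 genes with the lowest adjusted p in the comparison described are named, or the 2 with the highest TPM where none passed, and the 10 non-members nearest in pattern. One item of the interferon gamma list, and a promoter motif, are not reported here. H2-Ea, H2-DMb2 and the overlapping genes are named outside that rule. So are the monocyte markers Chil3, Plac8 and Ly6c2 and the dendritic cell markers Zbtb46, Clec9a and Batf3. Lyve1, Cd163 and the other single macrophage markers are too. The markers named in this way were added after their values were seen. The members and lists were chosen with earlier results of these data known. As alternatives, the pseudocount was set to 0.1, the filter was dropped or raised to a TPM of 5, and only the compared groups were fitted. Values were also rescaled by the median of ratios, by quantile normalization or with mitochondrially encoded genes removed. The trend was left out, the replicate number was added as a block, and each heart was omitted in turn. The macrophage covariate, the chain ratios to each other and to single markers, the permutation within genotypes and the paired promoter letters in their 2 forms were added after the data were seen.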

Additional observations from a re-analysis of the deposited data

How the results depend on the processing

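The members' fold changes with cisplatin kept their direction under every alternative run. In wild-type mice they passed in 54 of 54 values over the settings other than the covariate (log2 fold change -3.35 to -1.72) and in 72 of 72 with a heart left out (-3.74 to -1.44), and averaged over genotypes in 48 of 48 and 72 of 72. In STING-/- mice they passed in 45 of 54 and 45 of 72. There the 5 genes called became 3 with no filter and 2 to 6 with a heart left out. The number called lower among all tested genes, 94 in the main fit, became 30 with no filter and 12 to 147 with a heart left out. With the macrophage covariate 0 members were called in CDDP against Saline, in STING-/-+CDDP against STING-/- and in the average, and the cause was not tested. Of all tested genes, that model called 16, 0 and 2 lower in these comparisons, in that order. Among the fold changes, reversals were found only in differences between genotypes and in interactions that had not passed. With the covariate, H2-Eb1 in STING-/-+CDDP against CDDP was -0.0429 and the interaction of H2-Aa -0.0751. The interaction of H2-Eb1 was 0.0913 under the median of ratios, 0.0135 without mitochondrially encoded genes and 0.0932 under quantile normalization. With a heart left out, H2-Eb1 ranged from -0.0373 to 0.470 in STING-/-+CDDP against CDDP, H2-Eb1 from -0.0530 to 0.496 and H2-DMa from -0.0269 to 0.720 in STING-/- against Saline, and the interaction from -0.187 to 0.542 for H2-Aa, -0.0421 to 0.513 for Cd74, -0.109 to 0.637 for H2-DMa and -0.313 to 0.300 for H2-Eb1. The median of ratios moved the median of all genes in STING-/-+CDDP against STING-/- from -0.11 to 0.01, with 6 members called. With the replicate number as a block, 6 members were called in CDDP against Saline, 6 in STING-/-+CDDP against STING-/-, 6 in the average and 0 between genotypes and in the interaction. After the group means were removed, same-numbered hearts correlated at -0.33 to 0.26 over 18 pairs (median -0.01). Whether hearts of the same number shared a batch is not stated, and these correlations cannot decide it. Leaving out a heart left 92 of 96 ratio results on their side of the threshold. TPM hold no depth, so how far depth limits Ciita and the H2-DM genes is unknown.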
